A study of Mus musculus with 6 samples.

Results

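miR-146a and miR-146b were followed in stem and progenitor cells of mouse bone marrow after targeting of Raptor, through every mouse probe named miR-146 with any letter, arm or suffix. That rule found 4 of the 1083 mouse probes among 2990 on the array, named mmu-miR-146a, mmu-miR-146a-P, mmu-miR-146b and mmu-miR-146b*. Names without a suffix were read as the mature miRNA, the star as the minor arm and -P as the precursor region, which the labels do not define. A further 4 human-named miR-146 probes served as a check on the same arrays.

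The conditional knockout cells (cKO, 3 arrays) came from mice with genotype Rprtf/f, Mx1-Cre+, and the control cells (Ctrl, 3 arrays) from littermates with genotype Rprtf/f, Mx1-Cre-. All mice were female C57BL/6 animals 10 weeks old and carried floxed alleles of the gene for Raptor, the subunit that defines the kinase complex mTORC1. Both groups received 400 µg of polyinosinic:polycytidylic acid (pIpC) in each of 7 injections, and Lin-cKit+ cells were isolated from bone marrow 10 days after the last one. Mx1-Cre is driven by an interferon-inducible promoter that is active in many tissues, so deletion need not be limited to these cells. pIpC mimics double-stranded RNA and itself triggers innate immune signalling, also in Ctrl mice. No probe read Rptor in this work, so the extent of deletion was not measured, and no untreated mice were among the 6 samples.

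Transcription of miR-146a is induced by NF-kB after Toll-like receptor signalling. The mature miRNA lowers TRAF6 and IRAK1, proteins that carry this signal to NF-kB, and so forms a negative feedback loop. In mice, loss of miR-146a leads to myeloid expansion and exhaustion of hematopoietic stem cells under repeated inflammation. miR-146b comes from another chromosome and shares the seed, the stretch of a miRNA that pairs with its targets.

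The RefSeq sequences are shown because the mature forms of miR-146a and miR-146b are close enough for a hybridisation probe to read both. Capitals mark the seed, bases 2 to 8, and all sequences run 5′ to 3′.
mmu-miR-146a-5p: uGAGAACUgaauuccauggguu
mmu-miR-146b-5p: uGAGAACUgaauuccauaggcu
mmu-miR-146a-3p: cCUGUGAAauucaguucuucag
mmu-miR-146b-3p: gCCCUAGGgacucaguucuggu
The 5p forms are identical at 20 of 22 bases, and differ by G18A and U21C, given as the base of miR-146a, the position counted from 1 at the 5′ end and the base of miR-146b. Of 1679 mature names in the RefSeq table, only these 2 carry the seed GAGAACU. The nearest other mature miRNA matched miR-146a-5p at 14 bases and miR-146b-5p at 13 in any ungapped alignment. The 3p arms have different seeds and match each other at only 12 bases.

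The hairpins are shown because the -P probe of miR-146a was read as one for this precursor. Capitals mark both mature arms.
Mir146 hairpin: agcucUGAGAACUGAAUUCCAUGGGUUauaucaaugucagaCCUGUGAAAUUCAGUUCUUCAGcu
Mir146b hairpin: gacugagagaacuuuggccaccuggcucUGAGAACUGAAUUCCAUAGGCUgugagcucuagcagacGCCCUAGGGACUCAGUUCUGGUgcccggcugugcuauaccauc
In GRCm38.p6, Mir146 (miR-146a) lies on the minus strand at chr11:43374397-43374461 and overlaps no other gene of the RefSeq table. Mir146b lies on the plus strand at chr19:46342762-46342870, inside the span of the long non-coding RNA Gm36493. The table gives no exons, so whether that position is exonic was not determined. The probe sequences were not used here, and how far the miR-146a probe also reads miR-146b, or the reverse, was not tested.

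Both mature mouse probes rose in cKO cells. The mmu-miR-146a probe had relative intensities of 1.72, 2.28 and 2.72 on the cKO arrays 1, 2 and 3, against 0.738, 0.741 and 0.858 on the Ctrl arrays 1, 2 and 3. The groups did not overlap, and the lowest cKO value was above the highest Ctrl value. The means were 2.24 ± 0.499 in cKO and 0.779 ± 0.0686 in Ctrl (3 arrays each, ± SD). On the log2 scale cKO exceeded Ctrl by 1.50 ± 0.24 (SE; limma, Benjamini-Hochberg adjusted p = 0.00154 over all mouse probes). This is a change of 2.84-fold, with a 95% confidence interval of 1.98- to 4.05-fold.

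The mmu-miR-146b probe behaved alike. It read 1.85, 2.09 and 2.61 on the cKO arrays, against 0.730, 0.917 and 0.782 on the Ctrl arrays. Again no Ctrl array reached the lowest cKO array. The means were 2.18 ± 0.389 in cKO and 0.810 ± 0.0968 in Ctrl (3 arrays each, ± SD). On the log2 scale cKO exceeded Ctrl by 1.42 ± 0.23 (SE; limma adjusted p = 0.00168). The change was 2.68-fold, with a 95% confidence interval of 1.90- to 3.80-fold. An exact permutation test over the arrays gave p = 0.1 for this probe and for mmu-miR-146a, the smallest possible with 3 arrays against 3. The smaller limma p-values also draw on variance estimated over all mouse probes.

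**Figure D1:**
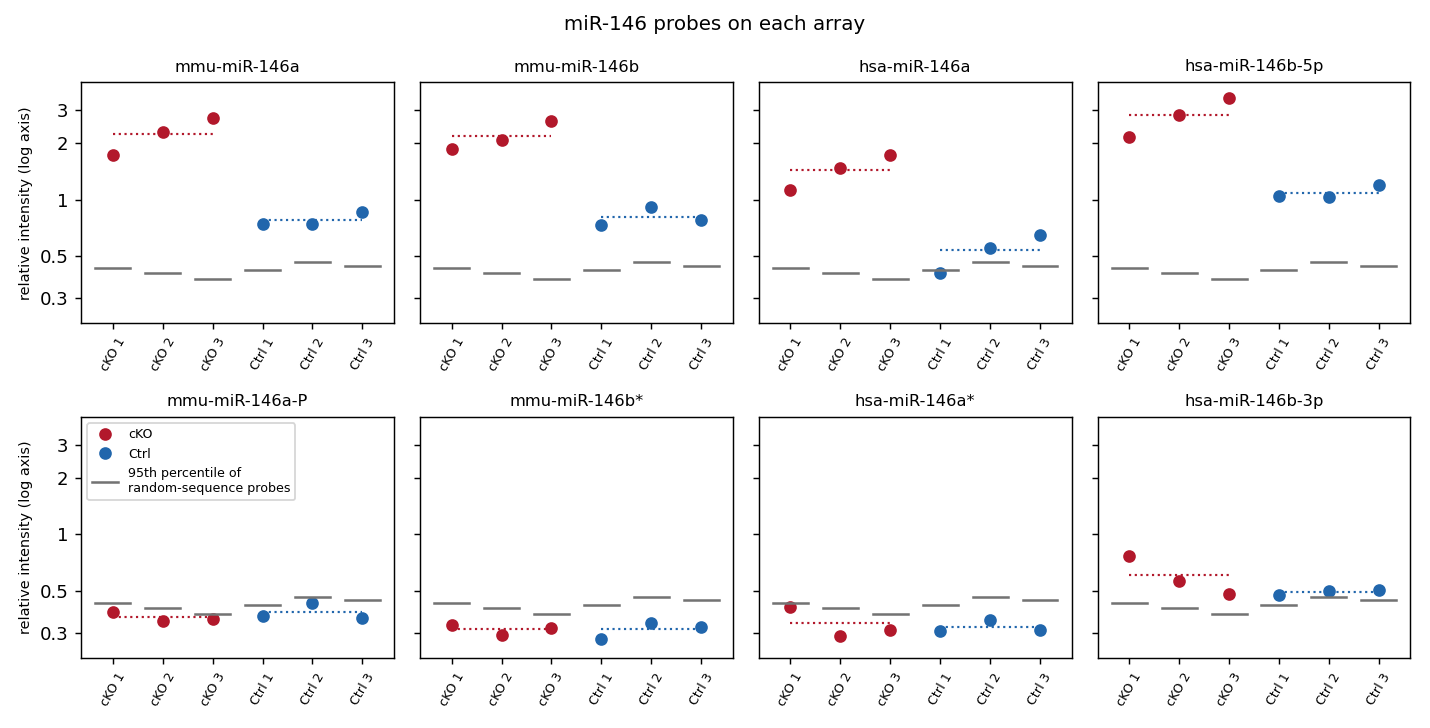
Relative intensity (log axis) of the 4 mouse and 4 human-named miR-146 probes on each of 3 cKO and 3 Ctrl arrays; dotted lines are group means and grey bars the 95th percentile of random-sequence probes on that array. The 4 mature probes of the upper row lie higher on all cKO arrays than on any Ctrl array, while the miR-146a-P, miR-146b* and human miR-146a* probes stay under the grey bars.

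The signal was also set against the array's own background, the 95th percentile of 38 random-sequence probes. That level was 0.431, 0.406 and 0.377 on cKO arrays 1, 2 and 3 and 0.423, 0.463 and 0.445 on Ctrl arrays 1, 2 and 3. The multiples below therefore also carry differences in background. The miR-146a probe stood at 3.99, 5.62 and 7.21 times that level on the cKO arrays and at 1.75, 1.60 and 1.93 times on the Ctrl arrays. The miR-146b probe stood at 4.30, 5.13 and 6.93 times in cKO and at 1.73, 1.98 and 1.76 times in Ctrl. Both were thus above background on all 6 arrays, and in Ctrl by less than 2 times. When the mean of the random-sequence probes was subtracted first, the changes were 4.53-fold for miR-146a (limma adjusted p = 0.00491) and 4.14-fold for miR-146b (limma adjusted p = 0.00472).

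Of the 1083 mouse probes 6.83% were called, 6.46% higher in cKO and 0.369% lower, at a limma adjusted p under 0.05. All cKO arrays exceeded all Ctrl arrays for 15.8% of mouse probes. Of the 4 miR-146 probes the 2 mature ones were called higher. By size of difference miR-146a ranked 29 and miR-146b 31 among the 1083, and by p they ranked 19 and 23. They are thus among the larger rises without being at the top, as the plot of difference against mean signal shows.

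**Figure D2:**
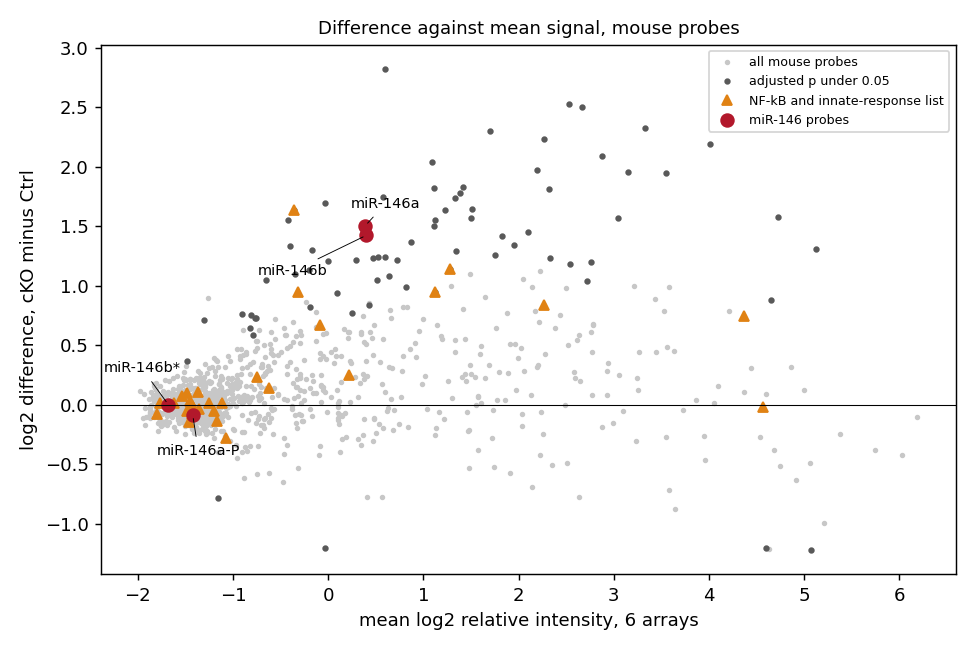
Log2 difference, cKO minus Ctrl, against the mean log2 relative intensity over 6 arrays for 1083 mouse probes, with miR-146 probes in red and the NF-kB and innate-response list as orange triangles. miR-146a (1.50) and miR-146b (1.42) lie almost on the same point at medium signal, and miR-146a-P and miR-146b* lie in the dim cluster near 0.

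The arrays were numbered alike in both groups. Between same-numbered arrays 1, 2 and 3 1, 2 and 3 the miR-146a probe was 2.33-, 3.08- and 3.17-fold higher in cKO. The miR-146b probe was 2.54-, 2.27- and 3.34-fold higher. Since the groups do not overlap, any pairing of arrays gives a rise in each pair, so only the sizes are informative. The third cKO array was also the highest for all 4 mature miR-146 probes, mouse and human.

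The change of miR-146a was not distinguishable from that of miR-146b. The within-array log2 ratio of the miR-146a to the miR-146b probe was -0.11, 0.13 and 0.057 on the cKO arrays and 0.016, -0.31 and 0.13 on the Ctrl arrays. The group means differed by 0.080, less than the SD within either group (0.12 in cKO and 0.23 in Ctrl; exact permutation p = 0.7, n = 3 each, two-sided). With 3 arrays against 3 that test cannot go below 0.1. Across the 6 arrays the log2 values of these probes correlated at r = 0.981, a description that includes the shared group difference; the part of cross-reading in it was not tested.

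The mouse probes miR-146b* and miR-146a-P gave no signal above background. miR-146b* read 0.329, 0.291 and 0.319 in cKO, against 0.279, 0.337 and 0.323 in Ctrl, with overlapping groups (limma adjusted p = 0.993). miR-146a-P read 0.386, 0.347 and 0.354 in cKO, against 0.367, 0.429 and 0.360 in Ctrl, also overlapping (limma adjusted p = 0.847). Neither exceeded the background level on any array, so a change in what these probes read was not measurable. The within-array contrast of mature against -P for miR-146a differed by 1.59 between cKO and Ctrl on the log2 scale, and that of mature against star for miR-146b by 1.42 (exact permutation p = 0.1 for each, the smallest possible, n = 3 each). With the second probe at background, these contrasts restate the rise of the mature probes and do not show an unequal change.

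The human-named probes read the same arrays and are not independent evidence. The human miR-146a probe read 1.13, 1.48 and 1.73 in cKO, against 0.405, 0.553 and 0.650 in Ctrl, where 1 array lay under background. The groups did not overlap, and the log2 difference was 1.43 ± 0.23 (SE; limma adjusted p = 0.0122 over 1737 human-named probes). The human miR-146b-5p probe read 2.16, 2.81 and 3.47 in cKO, against 1.04, 1.03 and 1.19 in Ctrl, again without overlap. Its log2 difference was 1.34 ± 0.25 (SE; limma adjusted p = 0.0249). Of the human-named probes 1.9% were called higher and 0.115% lower. Both human calls were lost after quantile normalization (adjusted p = 0.0761 and 0.124), without cKO replicate 2 (0.0679 and 0.132), without Ctrl replicate 1 (0.0802 and 0.159) and without Ctrl replicate 2 (0.0520 and 0.0780). That of miR-146b-5p was also lost without Ctrl replicate 3 (0.102) and with snoRNA and GAPDH scaling (0.0619).

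The human minor-arm probes did not pass. The miR-146a* probe was under background on all 6 arrays. The miR-146b-3p probe was above it on all 6, at 0.770, 0.562 and 0.480 in cKO and 0.473, 0.501 and 0.507 in Ctrl. The groups overlapped, and the log2 difference was 0.26 ± 0.17 (SE; limma adjusted p = 0.610).

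Other miRNAs tied to NF-kB or innate immune signalling were described through a list of 14 miRNAs without miR-146, which 30 mouse probes read. Of these 30 probes 3 were called higher (10%, beside 6.46% of all mouse probes), 0 lower and 27 did not pass the limma test. The median log2 difference was 0.017 over the list and 0.041 over all mouse probes, and 12 of the 30 exceeded background on no array. The called probes were mature miR-21, miR-221 and miR-155.

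miR-21, which NF-kB and AP-1 can induce, read 1.26, 1.68 and 1.22 in cKO, against 0.431, 0.478 and 0.418 in Ctrl. The groups did not overlap (log2 difference 1.64 ± 0.18 SE; limma adjusted p = 0.000416), and 2 of 3 Ctrl arrays were above background. miR-155, induced in activated macrophages and lymphocytes, read 2.56, 3.54 and 3.02 in cKO, against 1.70, 1.59 and 1.41 in Ctrl (log2 difference 0.95 ± 0.26 SE; limma adjusted p = 0.0455). miR-221, which lowers the cKit receptor used in this isolation, read 2.77, 4.19 and 4.05 in cKO, against 1.53, 1.66 and 1.72 in Ctrl (log2 difference 1.14 ± 0.28 SE; limma adjusted p = 0.0223). Of these calls only that of miR-21 held with quantile normalization, with scaling to the snoRNA and GAPDH probes, without cKO replicate 2 and without any 1 Ctrl array. That scaling to snoRNA and GAPDH also called 7 list probes lower, of which 5 exceeded background on no array. With median centring of each array miR-21 and miR-221 were called and miR-155 was not.

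**Figure D3:**
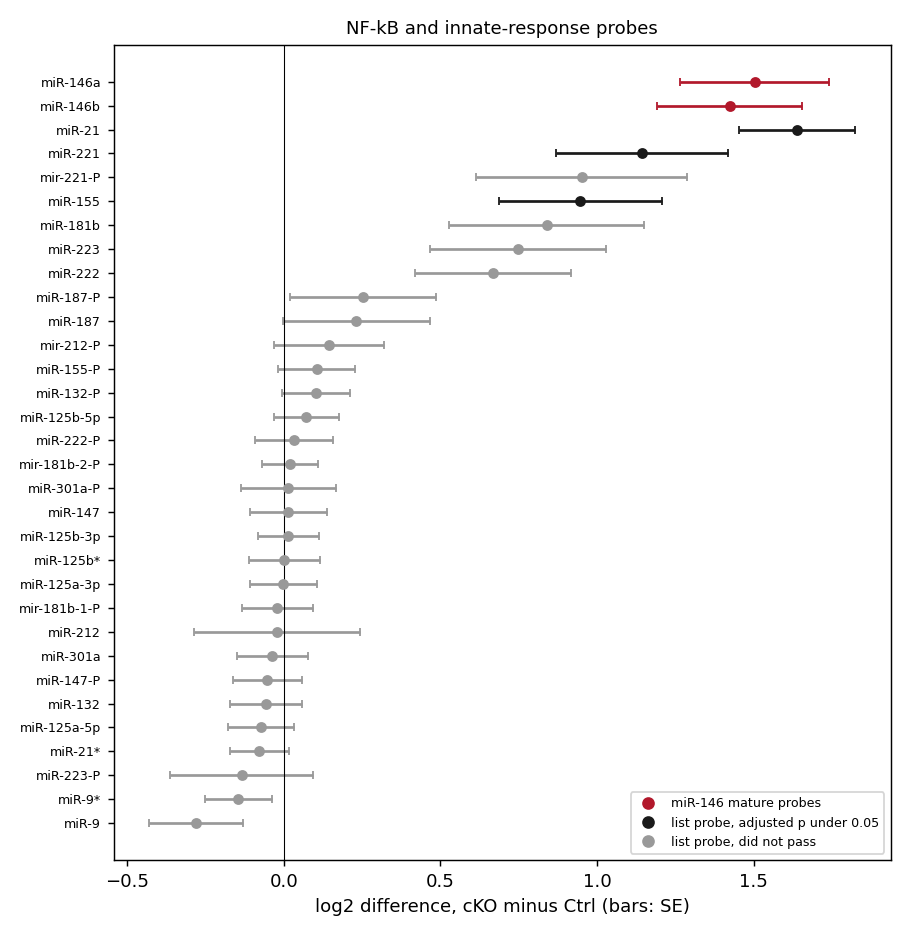
Log2 difference, cKO minus Ctrl, with its SE for miR-146a, miR-146b and the 30 probes of the NF-kB and innate-response list, each fitted on 3 cKO and 3 Ctrl arrays. Black points passed the test (miR-21, miR-221 and miR-155); miR-132, miR-147, miR-125a, miR-125b and miR-301a lie near 0.

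The remaining bright members of the list did not pass. miR-223, a myeloid miRNA, averaged 27.7 ± 9.29 in cKO and 15.9 ± 0.720 in Ctrl (3 arrays each, ± SD; limma adjusted p = 0.165). miR-181b, which restrains nuclear import of NF-kB in endothelium, averaged 6.67 ± 2.17 in cKO and 3.61 ± 0.148 in Ctrl (limma adjusted p = 0.160), and miR-222, a cluster partner of miR-221, 1.24 ± 0.486 in cKO and 0.747 ± 0.0310 in Ctrl (limma adjusted p = 0.161). The groups did not overlap for any of these.

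miR-132, induced together with miR-146a and miR-155 by bacterial lipopolysaccharide in a human monocytic line, averaged 0.429 ± 0.0289 in cKO and 0.445 ± 0.0108 in Ctrl (3 arrays each, ± SD; limma adjusted p = 0.911). That level is close to background in both groups. miR-212, from the same transcript as miR-132, averaged 23.8 ± 4.72 in cKO and 24.2 ± 4.95 in Ctrl (limma adjusted p = 0.981), with overlapping groups. Its -P probe averaged 0.689 in cKO and 0.623 in Ctrl, and whether the miR-212 probe reads that miRNA alone was not tested. miR-147, a Toll-like receptor induced miRNA of macrophages, averaged 0.423 ± 0.0524 in cKO and 0.416 ± 0.00766 in Ctrl (limma adjusted p = 0.980) and exceeded background on 2 cKO arrays and no Ctrl array. miR-9, inducible by NF-kB in human monocytes, averaged 0.432 ± 0.0218 in cKO and 0.532 ± 0.109 in Ctrl (limma adjusted p = 0.399), with every cKO array under every Ctrl array. The share of all mouse probes separated in that direction is not given here. In cKO the miR-9 values of 0.410 to 0.453 were close to background, which was 0.377 to 0.431 on these arrays. miR-187, raised by interleukin-10 in human monocytes, was read best by its -P probe, at 1.29 ± 0.265 in cKO and 1.07 ± 0.159 in Ctrl (limma adjusted p = 0.730). Neither the mature miR-301a probe nor the probes of miR-125a and miR-125b exceeded background on more than 1 array, and that of miR-301a-P averaged 0.465 in both groups (limma adjusted p = 0.980).

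Among 438 other mouse probes above background on all 6 arrays, the 5 whose log2 values over these arrays were most like the mean of mature miR-146a and miR-146b were miR-669f (r = 0.9995), miR-669d-P (0.9992), miR-467e* (0.998), miR-669c-P (0.997) and let-7c (0.996). The first 4 are probes of rodent repeat-family miRNAs, and all 4 were called higher, by 1.55 to 1.95 on the log2 scale. let-7c read 2.48, 2.83 and 3.07 in cKO, against 1.71, 1.72 and 1.83 in Ctrl, without overlap, and did not pass (log2 difference 0.67 ± 0.25 SE; limma adjusted p = 0.167). These correlations over 6 arrays share the arrays' scaling and the group difference.

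The isolated population holds several cell types, and fewer cells of a type cannot be told apart from less RNA per cell. Hematopoietic markers were present: miR-223, and miR-142-5p at 1.82 ± 0.352 in cKO and 1.23 ± 0.0949 in Ctrl (3 arrays each, ± SD; limma adjusted p = 0.252), while miR-126, known from stem cells and endothelium, exceeded background on 1 cKO array at most for either arm. The summed relative intensity of 6 hematopoietic probes was 24.0 to 42.1 in cKO and 17.8 to 19.6 in Ctrl, and none of the 6 was called. The 4 lymphoid probes summed to 4.76 to 8.30 in cKO and 2.65 to 2.95 in Ctrl, and 1 of the 4 was called, miR-342-3p, at 4.59 ± 1.87 in cKO and 1.06 ± 0.126 in Ctrl (limma adjusted p = 0.00154). Both sums were higher in cKO, as was miR-146, and their part in its rise was not tested. The hematopoietic sum rests mainly on miR-223, and the lymphoid sum mainly on miR-342-3p on the cKO arrays only. In Ctrl miR-342-3p averaged 1.06, beside 0.824 for miR-342-5p and 0.563 for miR-150. miR-223 read 20.7, 24.1 and 38.2 in cKO, against 15.1, 16.3 and 16.4 in Ctrl, while the log2 differences of miR-142-3p, miR-126-3p, miR-126-5p and miR-223-P were 0.052, -0.014, 0.030 and -0.13. In the lymphoid list mature miR-150 was higher in cKO by 0.47 on the log2 scale, without overlap, and did not pass (limma adjusted p = 0.160). There miR-342-5p differed by 0.017 and miR-150* by -0.040, and neither passed. The 6 erythroid probes summed to 2.99 to 3.59 in cKO and 3.24 to 4.14 in Ctrl, the 10 stromal probes to 5.21 to 6.37 in cKO and 4.21 to 5.29 in Ctrl, and 11 probes of muscle, liver and brain to 4.17 to 4.48 in cKO and 3.93 to 4.29 in Ctrl. No erythroid, stromal or other tissue probe was called. Above background on all 6 arrays were 2 erythroid probes, 2 stromal ones (miR-214 and miR-199b) and 0 of muscle, liver and brain. Those without overlap included mature miR-143 and mir-133b-P (log2 difference 0.39 each) and mir-451-P (-0.34). Mature miR-451 differed by -0.61 with overlapping groups. Above background on no array were 1 erythroid, 5 stromal and 4 muscle, liver and brain probes. Among them were miR-1, mature miR-145, miR-199a, miR-143-P and miR-144-P.

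Of the non-miRNA probes, the snoRNA and GAPDH set read higher in cKO and the random-sequence set did not. The mean log2 value of 6 snoRNA and GAPDH probes was -0.29 in cKO and -0.87 in Ctrl, a difference of 0.58 (exact permutation p = 0.1, the smallest possible, n = 3 each), and it was highest on cKO array 3. The random-sequence probes averaged -1.50 in cKO and -1.46 in Ctrl, a difference of -0.039 (exact permutation p = 0.5, n = 3 each). When each array was scaled by its snoRNA and GAPDH probes, miR-146a still rose 1.90-fold (limma adjusted p = 0.0351) and miR-146b 1.80-fold (limma adjusted p = 0.0419). After quantile normalization they rose 2.20-fold (limma adjusted p = 0.0264) and 2.06-fold (limma adjusted p = 0.0248).

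**Figure D4:**
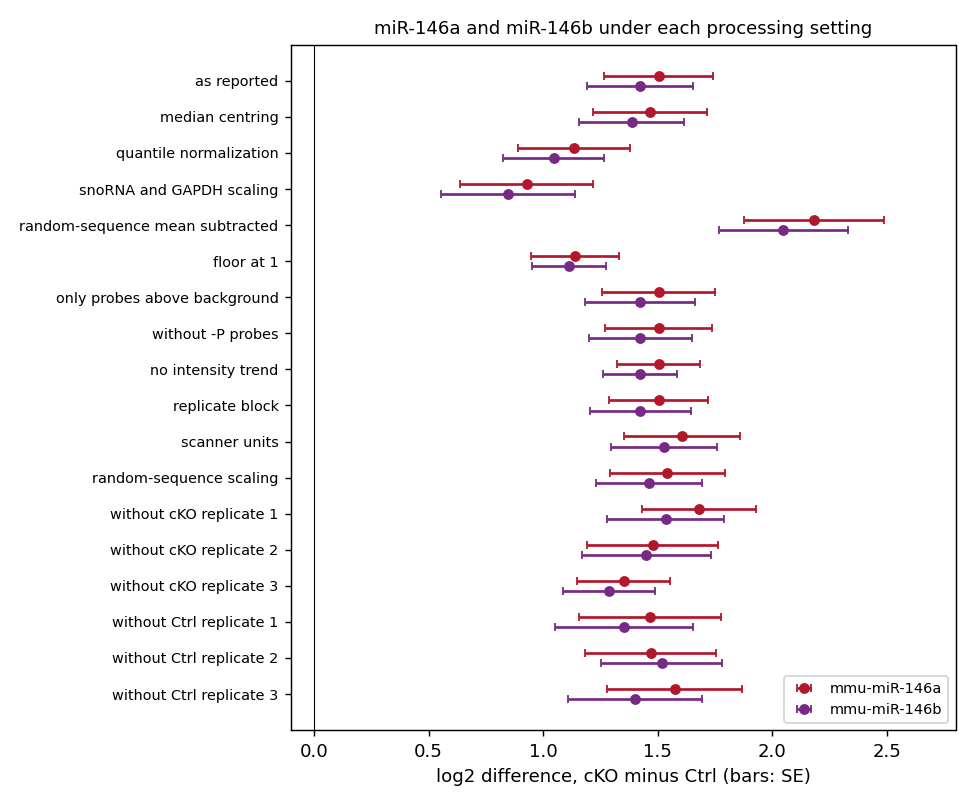
Log2 difference, cKO minus Ctrl, with its SE for miR-146a and miR-146b as reported and under 17 other settings. All points lie right of 0, from 0.93 to 2.18 for miR-146a and from 0.85 to 2.05 for miR-146b.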

How the data were processed

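Array titles name 1 mouse each. RNA (5 µg a sample) was labelled with biotin through random-primed reverse transcription and detected with a streptavidin conjugate, per the labels. The values are the relative intensity the authors deposited; the labels name the scanner (Axon 4000B), while image software, background correction and normalization are not given in sources used here. At least 99.967% of an array's values become multiples of 0.25, within 0.01, when the highest is set to 65535, so they were read as scanner values divided by 1 constant per array (829 to 987.5). Log2 values without floor or further scaling were fitted with limma 3.58.1 in R 4.3.3 (two-sided, intensity trend, Benjamini-Hochberg over 1083 mouse probes, threshold 0.05; human-named probes separately). Single values had exact permutation tests over arrays. The test was also run on simulated data with independent values per probe and no array-wide shift. That run cannot speak to errors from shifts between arrays. Sequences are from RefSeq (GRCm38.p6), where all 4 mature arms matched. Figures used Python 3.11.15 and matplotlib 3.10.9.

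Deviations from the group means correlated at 0.104, 0.124 and 0.178 within same-numbered arrays, and at 0.114 between cKO array 2 and Ctrl array 1. The same-numbered arrays all passed 0.1 and were treated as pairs in an alternative fit. The pairing comes from this check and not from the labels. The check does not establish a pairing, since the unlike-numbered arrays at 0.114 passed 0.1 too. The number of arrays limits the precision. Named probes are all those of miR-146, the called and the brightest probe of each listed miRNA, the 5 most alike by correlation, and markers. Members, lists and markers were chosen with earlier results of these data known.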

Additional observations from a re-analysis of the deposited data

How the results depend on the processing

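miR-146a and miR-146b kept their direction and their call under all 17 other settings. Scanner units and scaling by random-sequence probes were chosen after seeing the data, as was snoRNA and GAPDH scaling of the human probes. Leaving out 1 array gave 1.35 to 1.68 for miR-146a and 1.29 to 1.53 for miR-146b on the log2 scale. The replicate block left the estimates at 1.50 and 1.42 (limma adjusted p = 0.00105 and 0.00135), changed no other call of a miR-146 probe, and gave 95 calls over all mouse probes and 4 in the NF-kB list, against 74 and 3 without it.

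Over all mouse probes 40 were called after quantile normalization (32 higher, 8 lower), 345 with snoRNA and GAPDH scaling (35 higher, 310 lower) and 34 to 129 when 1 array was left out: 46 and 129 on dropping cKO arrays 2 and 3, and 34 and 48 on dropping Ctrl arrays 1 and 3. In the list the counts were 1, 8 and 1 to 5. Dropping cKO array 2 or any 1 Ctrl array left 1 call, and dropping cKO array 3 gave 5.

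With snoRNA and GAPDH scaling miR-146a-P gave -0.66 and passed as lower, miR-146b* gave -0.57 and passed as lower, human miR-146a* gave -0.53, human miR-146b-3p -0.31 and human miR-146b-5p 0.77. In scanner units miR-146a-P gave 0.018, and miR-146b* gave -0.035 with median centring and -0.0075 after quantile normalization, all at background. Quantile normalization gave 1.24 for human miR-146a and 1.06 for human miR-146b-5p. Without 1 array the ranges were -0.13 to -0.0048 for miR-146a-P, -0.077 to 0.058 for miR-146b*, 1.24 to 1.60 for human miR-146a, -0.10 to 0.15 for human miR-146a*, 0.075 to 0.42 for human miR-146b-3p and 1.18 to 1.52 for human miR-146b-5p. The difference of miR-146a minus miR-146b ran from -0.048 (without Ctrl replicate 2) to 0.17. Subtracting random-sequence signal moved the mature against -P contrast of miR-146a to 2.18 and the mature against star contrast of miR-146b to 2.05, by construction: the dim probes then sit at the floor, and the contrasts equal the mature probes' own differences. Leaving out 1 array gave 1.42 to 1.81 and 1.30 to 1.57. snoRNA and GAPDH scaling lowers every log2 difference by the same 0.58, and scanner units and median centring also shift all probes of a table alike, so the changed signs under these follow from the scaling. The cause of the changes under quantile normalization was not tested. miR-146a-P and miR-146b* lie under the limits of the floor, subtraction and brighter-probe settings, which gave them no value.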
